A study of Mus musculus with 5 samples.

Results

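In hippocampal neuronal nuclei of the mouse, 425 bins of 50 kb lay in compartment A in the Basal state and in compartment B in both the Early and the Late state. They cover 21.25 Mb and make up 0.952% of the 44650 autosomal bins analysed. The bins were chosen by the sign of the first principal component (PC1) of the Hi-C matrix, above 0 in both Basal libraries and below 0 in the Early library and in both Late libraries, on the autosomes without chromosome 7. PC1 in all 5 libraries therefore chose them, so the direction of their PC1 values is given below as a description and not as a finding. Of the bins analysed, 20188 lay in A in both Basal libraries, and the 425 are 2.11% of these.

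Hi-C crosslinks chromatin, ligates DNA ends that touch in the nucleus and sequences the joined pairs. At the scale of megabases the contacts divide a chromosome into an A compartment, gene-rich and mostly transcribed, and a B compartment, gene-poor, mostly silent and often attached to the nuclear lamina. PC1 separates them with a signed score per bin. A positive value marks A and a negative value B in the convention of HOMER, the tool that made the scores. A bin whose score passes from A to B has a contact pattern closer to that of inactive chromatin than before. The scores and not the contacts themselves were available here. Long neuronal genes are among the loci known to lie near borders between compartments.

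The groups were 2 Basal libraries, 1 Early library and 2 Late libraries, named only as far as the titles go. All 5 came from sorted nuclei of mice that carry ArcCreERT2 and the reporter R26R-STOP-floxed eYFP, with the genotype given as +/+. In these mice a Cre recombinase that needs tamoxifen is driven by the promoter of Arc, a gene switched on by neuronal activity, and permanently turns on yellow fluorescent protein. The protocol describes a dose of hydroxytamoxifen ahead of contextual fear conditioning, the pairing of a place with a foot shock, after a period of housing in the dark. One treatment label is shared by all 5 libraries, a foot shock on day 0 without recall and with the tissue taken that day, so it does not fix the times behind Basal, Early and Late. Nuclei were stained for NeuN, which marks neuronal nuclei, and for GFP, but the labels do not say which sorted fraction each library is. The nuclei of a group were pooled from 2 animals, and age and sex are not in the labels. The tables hold no expression, so the neuronal identity of the nuclei was not checked against marker genes.

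The members lay close to the border between the compartments before and after the move. In Basal replicate 1 their PC1 ran from 0.000399 to 1.3 with a median of 0.233, and in Basal replicate 2 from 1.23e-05 to 1.31 with a median of 0.222. In Early it ran from -1.08 to -6.56e-05 with a median of -0.25. In Late replicate 1 the range was -1.11 to -0.000971 with a median of -0.333, and in Late replicate 2 it was -1.07 to -0.0016 with a median of -0.331. The rule keeps the Basal values apart from the others, while the Early and Late values overlapped almost entirely. For scale, the median Basal PC1 over all bins in A in both Basal libraries was 1.0. The typical member was thus weakly A in Basal and weakly B afterwards.

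**Figure D1:**
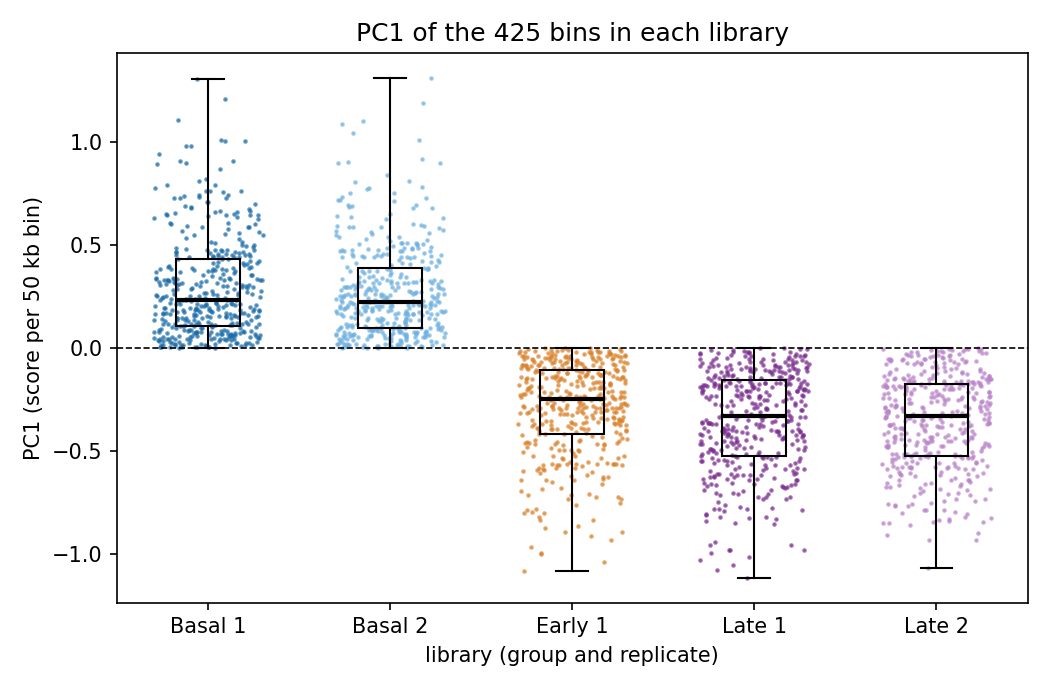
PC1 (score per 50 kb bin, vertical axis) of the 425 bins in each of the 5 libraries (horizontal axis). Points are bins, boxes span the quartiles with the median as a thick line, whiskers reach the lowest and highest bin, and the dashed line at 0 divides A from B. Medians were 0.233 and 0.222 in the Basal replicates, -0.25 in Early and -0.333 and -0.331 in the Late ones.

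The median difference of Early minus Basal over the 425 bins was -0.523, from -1.59 to -0.0592. The median of Late minus Basal was -0.615, from -1.62 to -0.121. Over all autosomal bins analysed these medians were -0.003 and -0.0133. The gap between the Basal replicates had a median of 0.0964 in the members and 0.0987 over all bins, and the gap between the Late replicates 0.143 and 0.16. The rule places Basal and the other states on opposite sides of 0, so the size of the drop against these gaps is not read as a result. Early has no replicate of its own.

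Each comparison was also fitted with limma across all 47652 bins of X and of the autosomes without chromosome 7, with Benjamini-Hochberg adjustment at 0.05. Early versus Basal called 212 of the 425 members lower (49.9%), against 9.98% of all bins and 8.91% of autosomal bins called lower. Late versus Basal called 297 members lower (69.9%), against 7.63% of all bins and 6.54% of autosomal bins. The rule used both contrasts and both share the Basal libraries, so nothing is read from these shares. The counts depended on which libraries entered the fit. Both comparisons called fewer members without either Basal replicate and more without either Late replicate. The number called over all bins moved the same way, so this is not read as a trait of the members. With all sequences as deposited in the fit, including chromosome 7, Early versus Basal called 59 members lower and Late versus Basal 0. Over all bins of that fit, 2084 of 50542 and 0 were called in either direction. At an unadjusted p under 0.05 in limma, 365 members were lower in Late versus Basal.

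Between Early and Late the median difference was small. Late minus Early had a median of -0.0681 over the 425 bins, with a range from -0.829 to 0.797, and was below 0 in 260 bins (61.2%). This small shift depended on the scaling: with quantile-normalized values the median was -0.00046. The Early value lay between the values of the Late replicates in 117 bins, above both in 193 and below both in 115. In limma, Late versus Early called 18 members lower (4.24%), against 6.44% of all bins and 6.71% of autosomal bins, and 8 members higher (1.88%), against 6.28% and 6.49%. The rule requires B in both states, so nothing is read from these low shares. The count of 18 fell without either Basal replicate and rose without either Late replicate, as did the number called over all bins.

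The bins called between Early and Late were scattered over 18 runs of neighbouring members on 10 chromosomes. The 18 lower bins lay in 11 of these runs. Chromosome 14 from 39500001 to 39750000 held 3 of them, with PC1 of 0.28 and 0.23 in the Basal replicates, -0.21 in Early, and -0.94 and -0.80 in Late. By general knowledge of the mouse genome this run lies in Nrg3, which encodes a neuregulin ligand of the ErbB4 receptor, and it is described here after its values were seen. On chromosome 18 from 89700001 to 89850000, 2 of 3 bins were called, with PC1 of 0.14 and 0.17 in Basal, then -0.15 in Early, and -0.77 and -0.71 in Late. In both places Early stood between Basal and Late. This order largely follows from the rule and from picking runs with bins called lower in Late than in Early. The 8 higher bins lay in 7. Chromosome 11 from 105500001 to 105750000 held 2 of them, with PC1 of 0.18 and 0.15 in the Basal replicates, -0.61 in Early and -0.071 and -0.19 in the Late ones. Early was the lowest library there, which likewise largely follows from picking a run with bins called higher in Late.

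The threshold at 0 decided many members. Of the 425 bins, 275 (64.7%) lay within 0.1 of 0 in at least 1 library, and 150 remained when each library had to pass 0 by 0.1. The library nearest to 0 was Basal replicate 2 in 110 members, Early in 100, Basal replicate 1 in 90, Late replicate 1 in 70 and Late replicate 2 in 55. Just inside the rule, chromosome 10 from 17600001 to 17650000 had a PC1 of 1.2e-05 in Basal replicate 2, chromosome 6 from 73250001 to 73300000 had -6.6e-05 in Early, and chromosome 10 from 6900001 to 6950000 had 0.0004 in Basal replicate 1. Just outside it, chromosome 8 from 75750001 to 75800000 missed with 0.00055 in Late replicate 1, chromosome 5 from 72100001 to 72150000 with -0.0011 in Basal replicate 2, and chromosome 9 from 112350001 to 112400000 with 0.0012 in Late replicate 2. The bins that missed in a single library numbered 159 for Basal replicate 1, 184 for Basal replicate 2, 572 for Early, 184 for Late replicate 1 and 86 for Late replicate 2. Local noise, measured as the median distance between a bin and the average of its neighbours 100 kb to the left and right, was highest in Early, at 0.229 over the members and 0.195 over all bins. In the other libraries it was 0.137 to 0.181 over the members and 0.114 to 0.182 over all bins.

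For Basal and Late, replicates left out of the choice were also looked at. The nuclei of a group were pooled from 2 animals, so a left-out library may share animals with the library that chose the bins. The shares below therefore do not measure variation between animals. Choosing on Basal replicate 1, Early and Late replicate 1 alone gave 730 bins. In the replicates left out of that choice, Basal replicate 2 was above 0 in 511 of them (70.0%) and Late replicate 2 was below 0 in 609 (83.4%). Late replicate 2 lay below Basal replicate 2 in 638 of the 730 (87.4%), against 51.3% of all autosomal bins, with a median difference of -0.425 against -0.0111. The reverse choice, on Basal replicate 2, Early and Late replicate 2, gave 787 bins, of which 681 (86.5%) were lower in Late replicate 1 than in Basal replicate 1, with a median of -0.403. Over all bins in A in both Basal libraries, the Late mean lay below the Basal mean in 56.5%. This share rests on means of 2 libraries and on bins with a median Basal PC1 of 1.0, against 0.222 in the members. It is therefore not a matched background. The direction carried over to the left-out libraries in most cases, with smaller differences than over the members. Bins are not independent replicates, since neighbours share reads, and these shares carry no p-value.

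The share of A bins that moved and stayed dropped steeply with the Basal score. Of the A bins with a Basal mean up to 0.1, 81 of 453 were members (17.9%). The share was 11.6% between 0.1 and 0.2, 8.43% between 0.2 and 0.3, 3.96% between 0.3 and 0.5, and 1.89% between 0.5 and 0.75. Above 1, where 10129 A bins lay, 5 bins (0.0494%) were members. All 5 were on chromosome 16. A bin near 0 needs a smaller change to meet the rule, so this gradient is partly set by the choice. Of the 425 members, 152 had a Basal mean above 0.3.

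**Figure D2:**
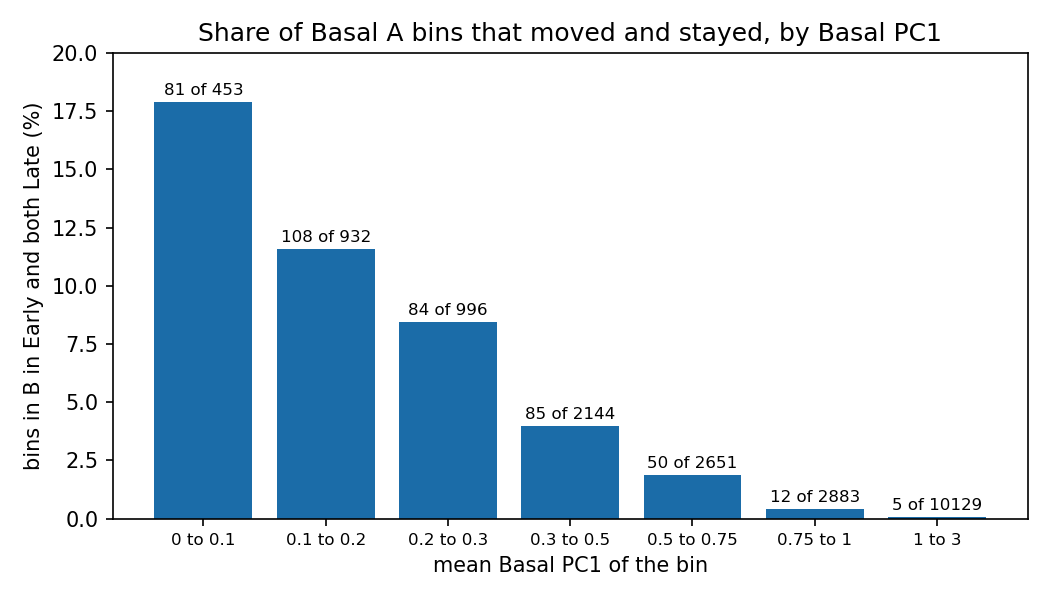
Percentage of bins in A in both Basal libraries that lay in B in Early and in both Late libraries (vertical axis, from 0), by the bin's mean Basal PC1 (horizontal axis). Numbers above the bars give members and A bins, from 81 of 453 in the lowest class to 5 of 10129 in the highest.

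Members were frequent at the edges of Basal A domains, taken as unbroken stretches of bins with a Basal mean above 0. A bin in B lay within 100 kb of 222 members (52.2%), against 12.9% of all Basal A bins. Much of this goes with the low Basal scores: among A bins with a Basal mean of at most 0.3, the shares were 67.4% for members and 56.8% for all. Above 0.3 they were 25.0% (38 of 152 members) and 7.06%. The scores are not matched within this class: 85 of these members had a Basal mean of at most 0.5, while 10129 A bins lay above 1. The gap is therefore not read as a preference for edges beyond the Basal score. There were 1033 such domains with a median length of 300.0 kb, of which 177 (17.1%) held a member. The domain around a member had a median length of 550.0 kb, against 3350 kb for the domain around any A bin, again without matching the Basal score. Every bin was a member in 28 domains, of which 24 were 1 or 2 bins long and the longest was 200 kb. Of the 375 domains over 500 kb, 64 held members and 0 consisted of members alone.

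Joined across a gap of at most 1 bin, the members formed 215 runs. Single bins made up 118 runs and pairs 49, while 48 runs had at least 3 bins and together held 209 members (49.2%). In Basal, the bins just outside a run were in A on both sides for 87 runs, in A on one side and B on the other for 98, and in B on both sides for 28. In Late, the same flanks were in B on both sides for 145 runs and in A on both sides for 5. In Early they were in B on both sides for 78 runs and in A on both sides for 43. For 2 runs a flanking bin was not listed in all libraries. B flanks on both sides were thus most frequent in Late and least in Basal, a difference that was not tested. A flanking bin is never a member. One in A in both Basal libraries and in B in both Late libraries therefore cannot be in B in Early. The contrast between Early and Late flanks is thus partly set by the rule.

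The shift was not limited to the members. In the 48 runs of at least 3 bins, the mean PC1 was 0.326 and 0.309 in the Basal replicates, -0.336 in Early, and -0.372 and -0.399 in Late. At 100 kb outside these runs the means over both sides were 0.174 and 0.146 in Basal, then -0.13 in Early, and -0.314 and -0.306 in Late. At 500 kb outside they were -0.0613 and -0.0474 in the Basal replicates, -0.286 in Early and -0.294 and -0.279 in the Late ones. At 250 kb the means were 0.0428 and 0.0223 in Basal, then -0.273 in Early, and -0.33 and -0.298 in Late. The difference from Basal was thus smaller outside the runs and still present 500 kb away. In Early it did not shrink between 100 and 250 kb. Bins next to a member share reads with it, since PC1 was computed in windows of 100 kb, and the flanks were reached through the choice of the runs. Up to 100 kb outside a run no bin is a member, since gaps of 1 bin were joined. Bins farther out can belong to other runs. Some of the runs lie in the proximal stretch of chromosome 16 described below, where PC1 was lower throughout. The part of either in these means was not tested.

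**Figure D3:**
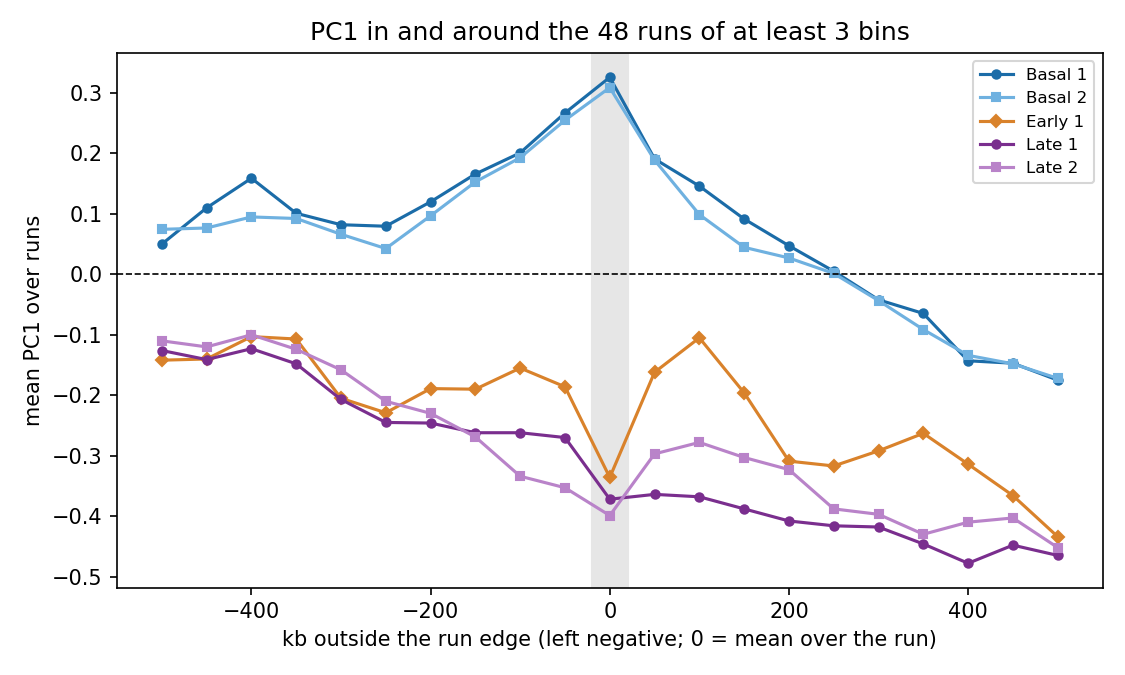
Mean PC1 (vertical axis) in and around the 48 runs of at least 3 bins, by distance in kb outside the left (negative) or right edge, with the mean over the run at 0 (shaded), for each library. The Basal lines peak at the run (0.326 and 0.309), and the Early and Late lines lie below 0 at every distance shown.

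By a fixed rule, the 15 longest runs and the 10 runs of at least 3 bins with the largest drop were named, 21 in all since 4 met both. They held 120 members. In limma, 86 of these bins were called lower in Early and 110 lower in Late, against 9.98% and 7.63% of all bins. In 10 runs every bin was called in both comparisons. The same PC1 values chose the members and the runs. Calls and adjusted p given for the named runs here and below therefore describe them and support nothing. Gene names are given where the position of the gene is general knowledge of the mouse genome. No annotation of the build mm9 was used, so exons, introns and gene borders are not placed, and the other runs carry no gene name.

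The largest drop as deposited lay in Rbfox1, which encodes a neuronal splicing regulator and is among the longest genes of the mouse. Over 8 bins of chromosome 16 from 6050001 to 6500000, the mean PC1 was 1.03 and 1.02 in the Basal replicates, -0.30 in Early, and -0.29 and -0.40 in Late. Basal stood at 1.02 ± 0.0085 and Late at -0.35 ± 0.075 (SD, n = 2 each), and the Early value lay between those of the Late replicates. All 8 bins were called lower in both comparisons, with a limma adjusted p of at most 0.00809 in Early and 0.00301 in Late. The run was named for its length and drop in the same values, so these p-values describe it and support nothing. Among the named runs it had the highest Basal mean, near the 1.0 of the typical A bin. The differences of -1.32 and -1.37 shrank to -0.49 and -0.85 once a running mean over 10 Mb was removed from each library.

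Hecw1, which encodes a ubiquitin ligase of the NEDD4 family, overlaps the run on chromosome 13 from 14350001 to 14650000. Its 6 bins averaged 0.51 in each Basal replicate, -0.44 in Early, and -0.47 and -0.58 in Late. All 6 were called lower in Early (limma adjusted p at most 0.0246) and in Late (at most 0.00452). The flanks were in A on both sides in Basal and in B on both sides in Late, with 1 of each in Early. Without the 10 Mb trend the differences were -0.78 in Early and -0.80 in Late, against -0.95 and -1.03.

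The longest run had 15 member bins and spanned 850 kb on chromosome 17 from 69900001 to 70750000. Its mean PC1 was 0.33 and 0.30 in Basal, then -0.27 in Early, and -0.67 and -0.63 in Late. Late lay below Early in both replicates, by 0.38 on average, and 3 of the bins were called lower in Late than in Early. All 15 bins were called lower in Late than in Basal, and 11 of them in Early. Both flanks were in A in Basal and Early and in B in Late.

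At Dpp6, which encodes an auxiliary subunit of Kv4 potassium channels, 9 bins on chromosome 5 from 27350001 to 27850000 had means of 0.36 and 0.20 in the Basal replicates, -0.40 in Early and -0.45 and -0.47 in the Late ones. Of these, 6 were called lower in Early and 8 in Late. In Grik2, the gene of a kainate receptor subunit, 6 bins on chromosome 10 from 49100001 to 49400000 had 0.20 and 0.21 in Basal, -0.25 in Early, and -0.37 in each Late replicate. All 6 were called in Late and 3 in Early.

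Epha6 encodes an ephrin receptor of axon guidance. Its run on chromosome 16 from 60050001 to 60500000 had 7 bins with means of 0.18 and 0.19 in Basal, then -0.34 in Early, and -0.60 and -0.30 in Late. It was an island of A between B flanks already in Basal, and its Late replicates lay 0.30 apart. All 7 bins were called in Late and 2 in Early.

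Celf4 encodes an RNA-binding protein of neurons. On chromosome 18 from 25650001 to 25900000 its 5 bins had means of 0.45 and 0.40 in the Basal replicates, -0.33 in Early and -0.36 and -0.35 in the Late ones, and all 5 were called lower in both comparisons. Early and Late coincided within the gap between the Basal replicates. Xkr4, a member of the XK-related family of membrane proteins, holds 5 bins on chromosome 1 from 3300001 to 3600000. They had 0.14 and 0.092 in Basal, then -0.31 in Early, and -0.35 and -0.34 in Late, and 2 of them were called in each comparison. This run crossed 0 by a short distance on the Basal side.

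Among the named runs without a gene name, 3 had a Basal PC1 above 0.5 in both replicates outside chromosome 16. Chromosome 3 from 158050001 to 158250000 had means of 0.65 and 0.75 in the Basal replicates, -0.53 in Early and -0.56 and -0.34 in the Late ones over 3 bins. Chromosome 9 from 112250001 to 112500000 had 0.67 and 0.63 in Basal, then -0.34 in Early, and -0.15 and -0.33 in Late over 4 bins. Chromosome 9 from 104550001 to 104700000 had 0.65 and 0.51 in the Basal replicates, -0.35 in Early and -0.098 and -0.25 in the Late ones over 3 bins. In both runs on chromosome 9, Early was the lowest of the 5 libraries as deposited. With the 10 Mb trend removed the order of Early and Late turned: the differences from Basal became -0.58 in Early and -0.80 in Late in the first, and -0.42 and -0.70 in the second, against -0.99 and -0.89, and -0.93 and -0.76, as deposited. Every bin of these 3 runs was called lower in Early and in Late.

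On chromosome 2 from 7600001 to 7750000, 3 bins had means of 0.43 and 0.60 in Basal, then -0.23 in Early, and -0.69 and -0.57 in Late. As deposited, this run showed the widest step from Early to Late of the named runs, -0.40, although none of its bins was called between these states. Chromosome 1 from 177000001 to 177250000 had 0.49 and 0.41 in the Basal replicates, -0.44 in Early and -0.29 and -0.33 in the Late ones over 5 bins, all called in both comparisons. Early was the lowest as deposited, by a difference of -0.89 against -0.76 in Late, but not with the trend removed, where these became -0.61 and -0.68.

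A pair of runs on chromosome 10 lay 200 kb apart. From 9700001 to 10000000, 6 bins had means of 0.52 and 0.31 in Basal, then -0.29 in Early, and -0.22 and -0.29 in Late. From 10200001 to 10350000, 3 bins had 0.37 and 0.14 in the Basal replicates, -0.70 in Early and -0.67 and -0.58 in the Late ones. In both, the Basal replicates differed by over 0.2, more than in the other named runs. All 3 bins of the second run and 5 of the 6 bins of the first were called in each comparison.

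There were 4 more named runs outside chromosome 16. Chromosome 8 from 9600001 to 9950000 had means of 0.41 and 0.46 in Basal, then -0.24 in Early, and -0.45 and -0.10 in Late over 5 bins, with flanks in A on both sides in Basal and in Late and on one side in Early. Chromosome 11 from 52400001 to 52700000 had 0.38 and 0.30 in the Basal replicates, -0.19 in Early and -0.052 and -0.29 in the Late ones over 6 bins, of which 3 were called in each comparison. In both runs the Late replicates lay over 0.2 apart. Chromosome 3 from 13500001 to 13800000 had 0.32 and 0.31 in Basal, then -0.090 in Early, and -0.26 and -0.15 in Late over 5 bins. Chromosome 6 from 80500001 to 80750000 had 0.096 and 0.099 in Basal, -0.31 in Early, and -0.53 in each Late replicate over 5 bins. In these last 2 runs a single bin each was called in Early, against 4 and 5 in Late.

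**Figure D4:**
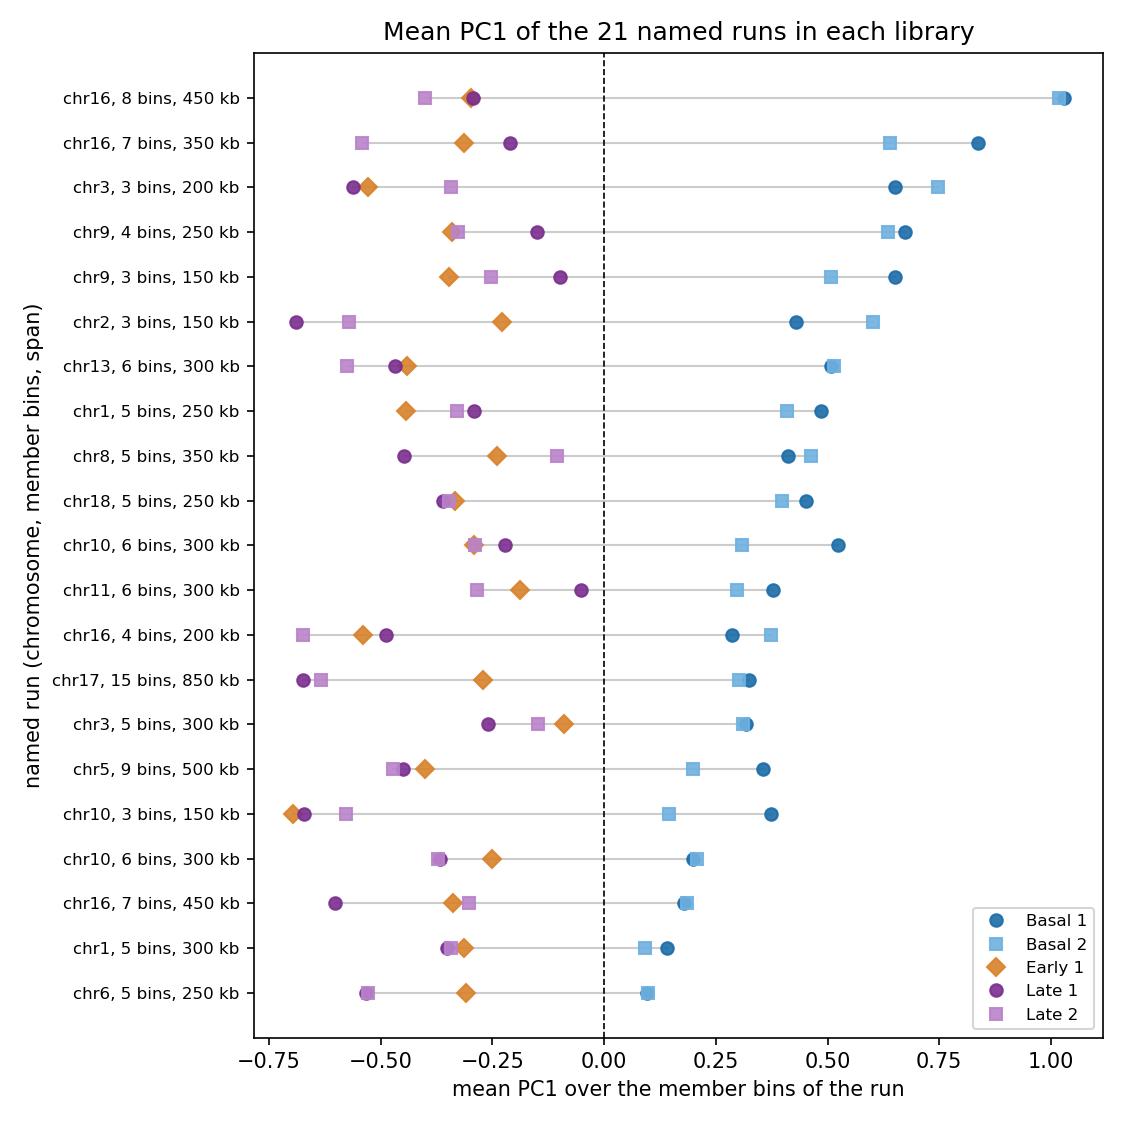
Mean PC1 over the member bins (horizontal axis) of the 21 named runs (vertical axis, by chromosome, number of member bins and span, ordered by Basal mean) in each library. Basal values run from 0.0917 to 1.03, and Early and Late values from -0.696 to -0.0522, with the 8-bin run of chromosome 16 at the top.

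The 27 runs of at least 3 bins that were not named spanned 150 to 250 kb. Their mean PC1 ran from 0.0472 to 0.639 in Basal replicate 1, from -0.88 to -0.0695 in Early and from -0.939 to -0.0705 in Late replicate 1. Late minus Basal had a median of -0.594 in them, against -0.758 in the named runs, which were chosen for length or for drop.

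Members were spread unevenly over chromosomes. Chromosome 16 held 48, or 5.77% of its 832 Basal A bins, followed by chromosome 18 with 30 of 772 (3.89%) and chromosome 10 with 38 of 1091 (3.48%). The median over the 18 autosomes was 1.95%. Chromosome 4 held 4 members among 1214 A bins (0.329%) and chromosome 19 held 2 among 555 (0.36%). Chromosome 13 lay near the middle with 23 (2.12%). The move in the other direction, from B in Basal to A in Early and Late, met 826 bins, or 3.61% of Basal B bins. It had another order of chromosomes, with the highest shares on chromosomes 5 (6.2%) and 4 (6.15%). Chromosomes 10 (5.15%), 16 (4.66%) and 19 (4.05%) came next. These shares are given without a test.

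**Figure D5:**
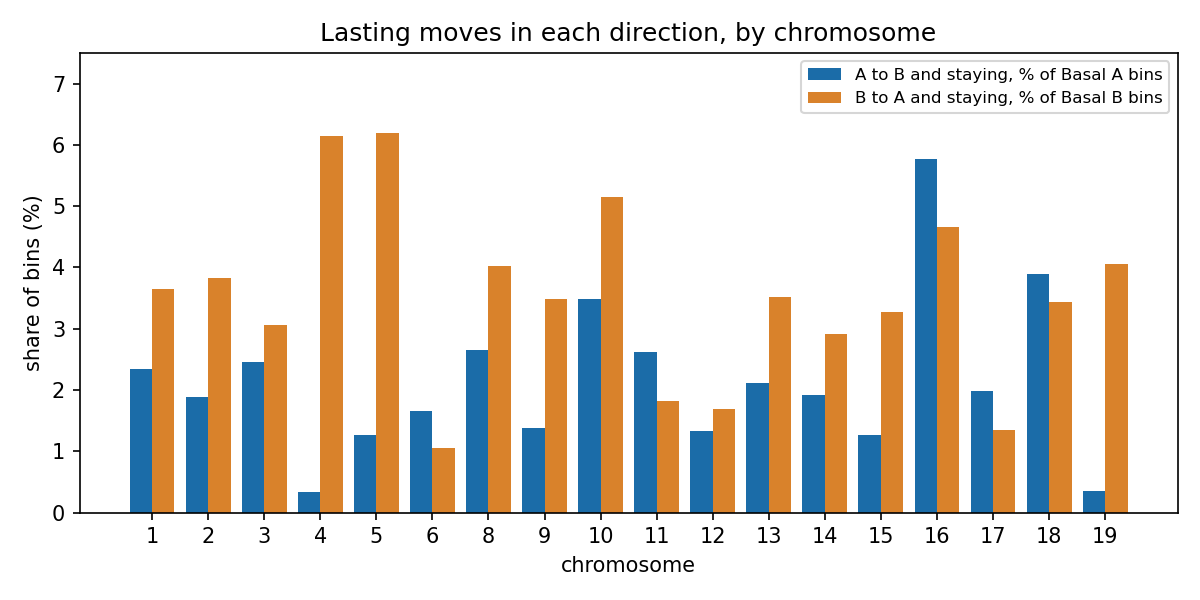
Share of Basal A bins that moved to B and stayed (blue) and of Basal B bins that moved to A and stayed (orange), in percent (vertical axis, from 0), for each of the 18 autosomes analysed (horizontal axis). Chromosome 16 leads the first series with 5.77%, and chromosome 4 has 0.329% in the first and 6.15% in the second.

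On chromosome 16 the members crowded at the proximal end. Below 10 Mb, a limit chosen after the values were seen, 25 members had mean PC1 of 0.715 and 0.671 in the Basal replicates, -0.364 in Early and -0.302 and -0.491 in the Late ones. Over all 135 bins of that stretch the means were 0.87 and 0.854 in the Basal replicates, 0.00628 in Early, and 0.279 and 0.26 in the Late ones, so PC1 was lower over the whole stretch and not in the members alone. The part of this broad shift in the members' values was not tested. The named runs from 7800001 to 8000000 and from 9050001 to 9400000 lie there. The first had 0.29 and 0.37 in Basal, then -0.54 in Early, and -0.49 and -0.67 in Late over 4 bins. With the 10 Mb trend removed, its differences of -0.87 in Early and -0.91 in Late became -0.20 and -0.41. The second had 0.84 and 0.64 in the Basal replicates, -0.31 in Early and -0.21 and -0.54 in the Late ones over 7 bins, and its differences of -1.05 and -1.11 became -0.49 and -0.64. Correlation between libraries was also lowest on chromosome 16 among the autosomes analysed, with a Pearson r over bins of 0.732 for its least alike pair. Without chromosome 16, 377 members had a median Early minus Basal of -0.504 and a median Late minus Basal of -0.601.

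The first 5 Mb of the analysed part of each chromosome, next to the centromere, held 34 members (8.0%), against 3.13% of Basal A bins. Chromosome 16 supplied 17 of them. Outside it the shares were 4.51% of members and 2.83% of A bins. The last 5 Mb held 17 members (4.0%), against 5.97% of A bins.

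The other courses that began in A gave sets of other shape. Bins in B in Early alone numbered 860, with a median PC1 of 0.465 in Basal, -0.198 in Early and 0.479 in Late. Of these, 129 lay on chromosome 16 and 125 on chromosome 19, which held 2 of the 425. Bins in B in Late alone numbered 572, with a median of 0.356 in Basal, 0.255 in Early and -0.282 in Late. Members had the lowest Basal median of the 3 sets, 0.222, and their longest run had 15 bins, against 41 for Early alone and 19 for Late alone. A further 270 bins were in A in Basal and B in Early with Late replicates of opposite sign. All of these comparisons share the Basal libraries, and the sets were defined by the same values.

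The ratio of the 2 lasting directions depended on the scaling. As deposited, the 425 bins stood against 826 that moved the other way and made up 34.0% of the lasting moves. With quantile-normalized values the counts were 587 and 636 (48.0% toward B), and with chromosome medians aligned between libraries 569 and 629 (47.5%). Both scalings bring the shares of A in the libraries together, so a shift toward balance is partly built into them. All 425 members met the rule after quantile normalization, and 401 with aligned medians.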

How the data were processed

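Each of the 5 libraries came as 1 table of PC1 per bin. The authors deposited PC1 as a score that can be positive or negative. Per the submitters' processing notes, HOMER and mm9 were used. The version, aligner, read filters and sign rule: not given in the sources used here. Bins are 50 kb and windows 100 kb, per the file names. On the autosomes analysed each chromosome had an SD of 1.0 in every library, so overall compartment strength cannot be compared. The tables hold no read counts, so depth is unknown. Coordinates are 1-based.

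Bins with a value in all 5 libraries (50542 of 51811) were kept on autosomes and X where every pair of libraries correlated with r of at least 0.5. Chromosome 7 failed (lowest r -0.976), since Late replicate 1 has the inverted sign there. Fits used limma 3.58.1 in R 4.3.3 with all 5 libraries, 2 residual and 6.6 prior degrees of freedom and 2-sided tests. Early, with 1 library, borrows the spread of the other groups, and p-values measure only the spread between libraries, which may be technical. The fit was run on simulated data with independent noise of equal size in every library and changes larger than the members' medians. That run does not measure its accuracy on these data. Python 3.11.15, numpy 2.4.6 and pandas 2.3.3 did the rest. Named regions were the 15 longest runs and the 10 with the largest mean drop among runs of at least 3 bins, plus the 3 bins nearest the threshold on either side. The members and lists were chosen with earlier results of these data known. Planned gene lists were not used, since no mm9 annotation was at hand, and no sequence is printed. Replicate numbers were not used to pair the libraries in the main fit. The differences between replicates 1 and 2 in Basal and in Late correlated with r of 0.0111 over bins. Shared handling of libraries with the same number was not tested.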

Additional observations from a re-analysis of the deposited data

Results flagged for a closer look

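The X chromosome, which the rule leaves out, held a signal of the same kind. Of its 3002 bins, 244 (8.13%) were above 0 in both Basal libraries and below 0 in Early and both Late libraries, against 0.952% of autosomal bins. It was singled out because these bins are no members. They did enter the fit and the shares over all bins. Agreement between libraries was lower on X than on any autosome kept, with an r over bins of 0.639 for the least alike pair against 0.732 on chromosome 16, and its part in the 8.13% was not tested. The sex of the animals is not in the labels, so a difference in sex between pools and a difference in state cannot be told apart on X.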

How the results depend on the processing

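The number of members was 425, and 150 when each library had to pass 0 by 0.1. Leaving out a library drops its condition, so the number can only rise, and it ran from 511 to 997 (997 without Early). It was 587, 569 and 377 with quantile normalization, with aligned medians and without chromosome 16. Runs numbered 242 with only touching bins joined and 275 after quantile normalization. The median Early minus Basal of -0.523 became -0.627 with quantile normalization, -0.601 with aligned medians, -0.466 with the 10 Mb trend removed and -0.504 without chromosome 16, an alternative added after seeing the data. Late minus Basal, -0.615, became -0.651, -0.667 and -0.536 under the first 3 of these. Late minus Early, -0.0681, became -0.00046 with quantile normalization and -0.0395 with aligned medians, and ran from -0.0681 to -0.0574 without single libraries. Of members called lower, Early versus Basal gave 212, with 59 when all sequences entered and 96 to 320 without single libraries. Late versus Basal gave 297, with 0 and 148 to 336. Late versus Early gave 18, with 0 for all sequences (52 at an unadjusted p under 0.05), 7 with quantile normalization, 8 with the trend removed and 5 to 52 without single libraries. The cause of these changes was not tested. With a replicate block the 3 counts were 189, 317 and 13. In the 21 named runs both differences from Basal stayed below 0 under quantile normalization and with the trend removed, where they reached -0.20 in Early and -0.41 in Late. Over all 215 runs, 0 turned above 0 under quantile normalization. With the trend removed, 5 did in Early, 3 of them on chromosome 16 (at most 0.31) and the others on chromosome 18 (0.12 and 0.033), and 1 did in Late, on chromosome 13 (0.098). Depth is unknown, and the single Early library and 2 libraries in each other group limit every call.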

Other observations

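On chromosome 7, kept out because Late replicate 1 has the inverted sign there, 2 of 2684 bins (0.0745%) met the rule as deposited, and 2 bins met it with that sign turned.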
